A study of Homo sapiens with 6 samples.

Results

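The STAT transcription factors are described here across 6 RNA libraries of KMS27, an established line of malignant plasma cells from multiple myeloma. The members are STAT2, STAT3, STAT4, STAT5A, STAT5B and STAT6, chosen by gene symbol. They make up 6 of 63677 genes and 80 of 215170 transcripts in the expression table. In 3 libraries, called HA-TAZ 1 to 3, the cells overexpressed HA-TAZ, which is TAZ (gene WWTR1, a transcriptional coactivator restrained by the Hippo pathway) carrying the short HA peptide tag. The other 3 libraries are given in the labels as wild type, under titles that carry the letters HA, and are called control a, b and c. All 6 came from KMS27 with no other treatment named, and neither the vector and its promoter nor the use of a clone or a pool of cells is given in the sources used here. The control columns carry a name that stands in no label and were taken as the wild type libraries because no other columns remained.

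STAT proteins lie latent in the cytoplasm. A cytokine binds its receptor, Janus kinases attached to the receptor phosphorylate the STAT on a tyrosine, and the phosphorylated STATs pair through their SH2 domains, enter the nucleus and bind DNA. STAT2 works mainly with IRF9 downstream of type I and type III interferon, STAT3 downstream of interleukin 6, STAT4 downstream of interleukin 12, the closely related STAT5A and STAT5B downstream of growth hormone, prolactin and interleukin 2, and STAT6 downstream of interleukin 4 and interleukin 13. In myeloma, STAT3 is known as a mediator of the survival signal that interleukin 6 gives to the malignant plasma cell. RNA levels do not measure phosphorylation or binding to DNA.

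Levels are given in TPM, a share of each library's RNA that is corrected for transcript length, summed over a gene's transcripts. TPM sums to the same total in every library and keeps no read depth, so the depth of each library is unknown. Only a mean of estimated counts per transcript stands in the table of comparisons that the authors deposited. The number of libraries limits the precision, and for transcripts with few estimated counts so does counting. Since few abundant RNAs can shift all shares, TPM was also divided by a median-of-ratios factor for each library. This scaled TPM is used for log2 fold changes. The factors ran from 0.866 to 0.967 in the HA-TAZ libraries and from 1.06 to 1.21 in the controls, so every contrast depends on this step. In limma's test across the 22651 genes whose mean reached 1 TPM, the median log2 fold change was -0.03 on scaled TPM and -0.27 on TPM as deposited. The table held WWTR1 at 297 ± 7.42 TPM (SD, n = 3) in the HA-TAZ libraries and at 2.20 ± 0.497 TPM (SD, n = 3) in the controls, which accords with the labels. All 10 plasma cell markers had a mean of at least 1 TPM, and none of 5 B cell markers did. Their sum lay at 2825 to 3262 TPM in HA-TAZ and at 4308 to 4877 TPM in the controls, and was mostly JCHAIN, at 2457 against 3792 TPM. On TPM as deposited, the mean was lower under HA-TAZ for 8 of the 10 and higher for SDC1 and SLAMF7. On that scale 43.6% of all genes tested lay lower under HA-TAZ without overlap, and 4.41% lay higher. The markers were not compared on scaled TPM. The part of these markers in the results was not tested. In bulk RNA, fewer cells of a kind and less RNA per cell cannot be told apart. The labels speak of triplicate libraries without naming separate cultures, so the p-values measure only the spread between these libraries, which may be technical.

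Of the 6 genes, 4 passed the filter of a mean of 1 TPM and 2 did not. In the HA-TAZ libraries STAT3 stood highest at 33.8 ± 0.679 TPM (SD, n = 3), with STAT6 at 32.3 ± 2.42 TPM overlapping it. STAT2 followed at 26.5 ± 2.00 TPM and STAT5B at 7.27 ± 0.444 TPM, and each lay below the gene before it in every library. In the controls STAT6 stood highest at 37.2 ± 0.949 TPM, above STAT3 at 27.3 ± 0.918 TPM in every library. STAT3 overlapped STAT2, which had 25.7 ± 2.08 TPM, and STAT5B lay at 10.2 ± 1.60 TPM. STAT4 and STAT5A came last in both groups and overlapped each other. Summed over the 6 genes, the family held 97.7 to 105 TPM in HA-TAZ and 96.8 to 106 TPM in the controls, which overlap. On scaled TPM the sums were 108 to 113 in HA-TAZ and 88.04 to 91.6 in the controls, which do not.

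**Figure D1:**
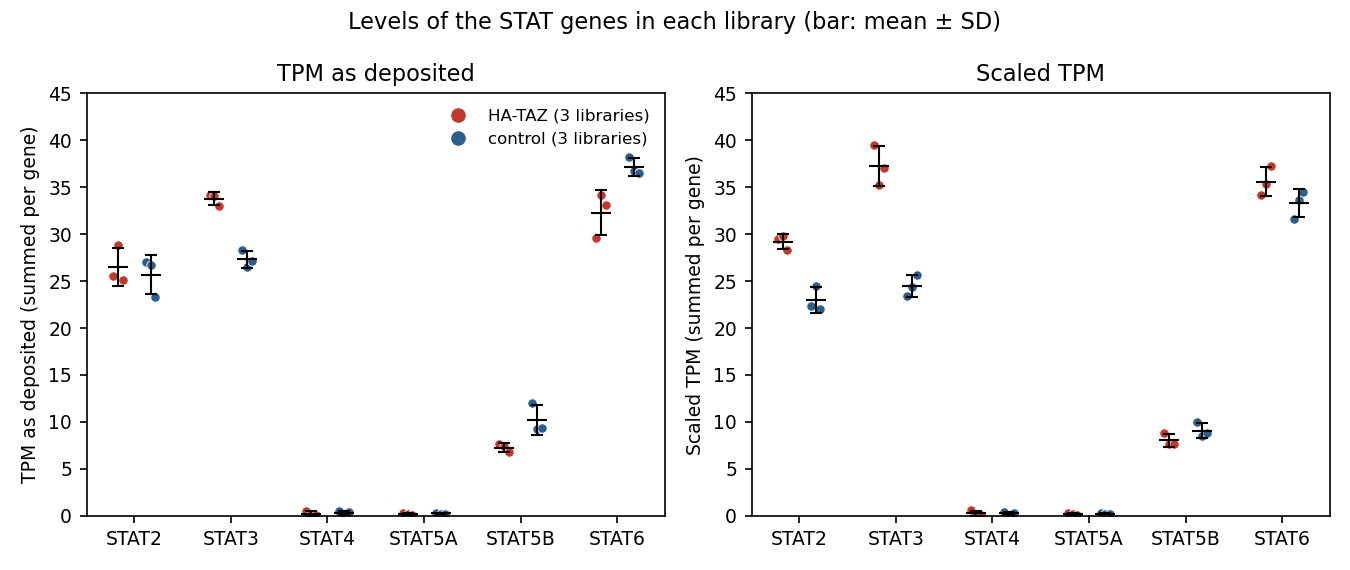
TPM of the 6 STAT genes in each library, as deposited and after scaling by the median-of-ratios factor. Points are libraries and bars are the mean ± SD of a group. STAT3 lies higher in all HA-TAZ libraries on both scales, STAT2 only after scaling, and STAT4 and STAT5A stay below 1 TPM.

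STAT3, the interleukin 6 effector, rose. Its level was 34.2, 34.1 and 33.0 TPM in HA-TAZ 1, 2 and 3, and 28.3, 26.5 and 27.2 TPM in control a, b and c. Every HA-TAZ library lay above every control, also on scaled TPM, where the values were 39.5, 35.3 and 37.1 against 23.4, 24.3 and 25.7. The log2 fold change on log2(scaled TPM + 1) was 0.59 (SE 0.06, 95% interval 0.43 to 0.74), with an adjusted p of 0.0122 by limma with Benjamini-Hochberg adjustment over all genes. On TPM as deposited the log2 fold change was 0.30 with an adjusted p of 0.0358 by limma. With only 1 library left out, the adjusted p by limma was 0.0589 without HA-TAZ 1, 0.0544 without HA-TAZ 3 and 0.0562 without control b, and the log2 fold change stayed between 0.55 and 0.63 in all 6 such fits.

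STAT2, the partner of IRF9 in the interferon-stimulated complex ISGF3, also rose on scaled TPM, but not on TPM as deposited. Its deposited levels were 25.6, 28.8 and 25.2 TPM in HA-TAZ 1, 2 and 3, and 27.0, 26.7 and 23.3 TPM in control a, b and c. These overlap. After scaling the values were 29.5, 29.8 and 28.3 against 22.4, 24.5 and 22.04, and the groups no longer overlapped. The log2 fold change was 0.33 (SE 0.06, 95% interval 0.19 to 0.48) with an adjusted p of 0.0359 by limma. On TPM as deposited it was 0.04 with an adjusted p of 0.723 by limma. Leaving out any 1 of the libraries (HA-TAZ 1, 2 or 3, control a, b or c) took the call away, with adjusted p between 0.0635 and 0.121 by limma and log2 fold changes between 0.31 and 0.38. With STAT3 and STAT2, 2 of the 4 tested STAT genes were called, against 7.29% of all genes tested. Both were higher, against 4.67% of all genes called higher and 2.63% called lower. They were also the 2 of these 4 genes whose groups did not overlap on scaled TPM, against 38.5% of all genes, 20.2% higher and 18.3% lower.

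STAT6, the effector of interleukin 4, had 29.6, 34.2 and 33.1 TPM in HA-TAZ 1, 2 and 3, and 38.2, 36.7 and 36.5 TPM in control a, b and c. On deposited TPM every HA-TAZ library lay below every control, as in 43.6% of all genes tested. Only 4.41% of genes lay above without overlap on that scale, STAT3 among them. On scaled TPM the groups overlapped, and the log2 fold change was 0.09 (SE 0.06, 95% interval -0.04 to 0.23, adjusted p 0.306 by limma). On TPM as deposited it was -0.20 with an adjusted p of 0.0983 by limma, so the direction turned with the scaling and neither value was called.

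STAT5B, which carries growth hormone and interleukin 2 signals, had 7.63, 7.39 and 6.77 TPM in HA-TAZ 1, 2 and 3, and 12.0, 9.21 and 9.31 TPM in control a, b and c. Control a was the highest library, and on deposited TPM the groups did not overlap. On scaled TPM the values were 8.82, 7.65 and 7.61 against 9.96, 8.45 and 8.80, which overlap. The log2 fold change was -0.16 (SE 0.09, 95% interval -0.38 to 0.07, adjusted p 0.296 by limma) on scaled TPM and -0.43 (adjusted p 0.0607 by limma) on TPM as deposited. STAT5B was not called on either scale, although its fold change was negative under every scaling.

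STAT4, known from T and NK cells, ranged from 0.0615 to 0.483 TPM in HA-TAZ and from 0.108 to 0.476 TPM in the controls. STAT5A, the close relative of STAT5B, ranged from 0.107 to 0.257 TPM in HA-TAZ and from 0.207 to 0.315 TPM in the controls. Both overlapped between the groups on both scales. In the fit without a filter their log2 fold changes were -0.03 and -0.05, with adjusted p of 0.940 and 0.724 by limma. On a scale with a pseudocount of 1, such low levels leave little room for a fold change. The T and NK cell markers were low in the same libraries, with 2 of 6 at a mean of at least 1 TPM and a sum of 3.05 to 3.17 TPM in HA-TAZ and 4.17 to 4.46 TPM in the controls.

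**Figure D2:**
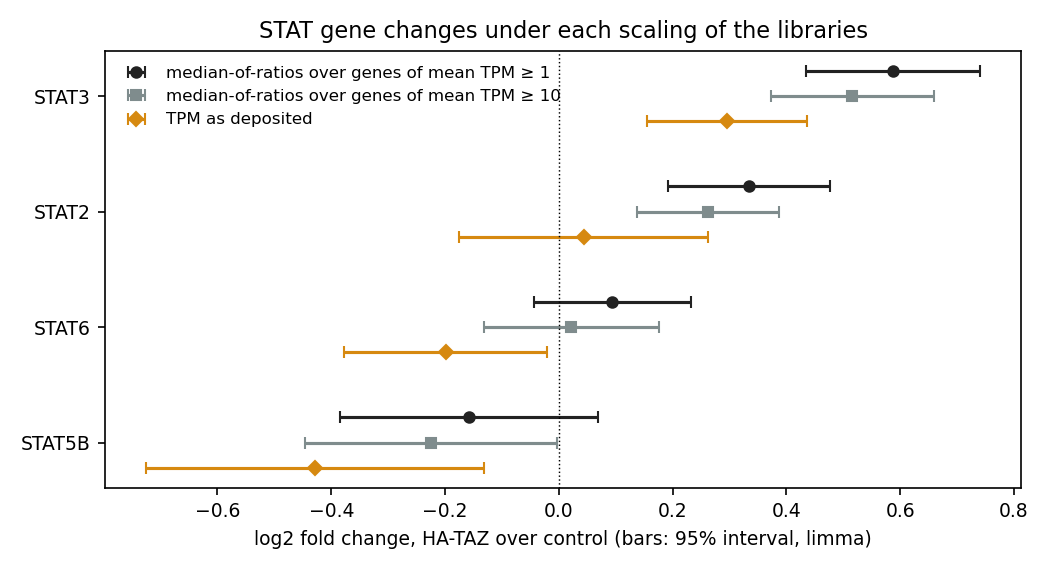
Log2 fold change of the 4 tested STAT genes, HA-TAZ over control, under 3 scalings of the libraries, with 95% intervals from limma. STAT3 stays above 0 in all 3, STAT2 reaches 0 with TPM as deposited, and STAT6 changes side, from 0.09 to -0.20.

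Shares within the family do not depend on the scaling between libraries. This measure was added after the data had been seen. STAT3 made up 35.02%, 32.6% and 33.6% of the summed STAT TPM in HA-TAZ 1, 2 and 3, and 26.6%, 26.7% and 28.0% in control a, b and c. The share of STAT6 was 32.2 ± 1.77% against 36.8 ± 0.892% (SD, n = 3 each), and that of STAT5B was 7.25 ± 0.489% against 10.1 ± 1.10%. The share of STAT3 was thus higher, and those of STAT6 and STAT5B lower, in every HA-TAZ library than in every control. The shares are parts of 1 whole, so a higher share of STAT3 lowers the others. On scaled TPM the levels of STAT6 and of STAT5B overlapped between the groups. No share over comparable families is given here. Of single genes, 48% did not overlap on TPM as deposited and 38.5% on scaled TPM. The shares of STAT3, STAT6 and STAT5B each had an exact two-sided permutation p of 0.1, the smallest that 3 against 3 libraries allow. After adjustment over the 6 shares it was 0.2. The share of STAT2 overlapped, at 26.4 ± 0.971% against 25.5 ± 1.40% (exact permutation p = 0.4).

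The ratio of STAT3 to STAT6 within a library was 1.16, 0.998 and 0.996 in HA-TAZ 1, 2 and 3, and 0.741, 0.723 and 0.744 in control a, b and c. STAT3 and STAT6 were therefore near equal under HA-TAZ, while STAT6 was the more abundant in the controls. The ratio of STAT3 to STAT5B was 4.66 ± 0.198 against 2.72 ± 0.315 (SD, n = 3 each), and the ratio of STAT3 to STAT2 was 1.28 ± 0.0827 against 1.07 ± 0.0884. The ratio of STAT2 to STAT6 was 0.822 ± 0.0554 against 0.691 ± 0.0472. All 4 ratios separated the groups without overlap, each with an exact two-sided permutation p of 0.1 and 0.1 after adjustment over the 4. The ratios were not planned before the data were seen, and all but the last share STAT3 as numerator. Of single genes, 48% did not overlap on TPM as deposited and 38.5% on scaled TPM. No share over comparable ratios of other genes is given here.

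The 80 STAT transcripts comprised 41 protein-coding and 30 retained-intron transcripts by GENCODE release 29, with 5 processed transcripts, 3 targets of nonsense-mediated decay and 1 not in that release. Of the 80, 23 had a mean of at least 1 TPM and entered the transcript fit, 9 from STAT2, 5 from STAT3, 2 from STAT5B and 7 from STAT6. None of the 10 STAT4 or 13 STAT5A transcripts reached that level, and 3 and 6 of them were listed at 0 in all libraries. A transcript level is an estimate that divides shared reads among overlapping forms, so single forms are less certain than their gene's sum.

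By limma over all 57448 transcripts, 1 of the 23 was called, against 0.534% of all transcripts tested. At an unadjusted p under 0.05, 8 of the 23 were higher and 1 was lower. The share of all transcripts at that level is not given here. Groups did not overlap on scaled TPM for 9 higher and 1 lower, against 17% and 15.4% of all transcripts, or 32.4% in both directions. The called transcript was STAT3-201 (ENST00000264657.5), the most abundant STAT3 form, 5047 bases long. It had 14.0, 15.9 and 14.4 TPM in HA-TAZ 1, 2 and 3, and 10.97, 11.1 and 10.5 TPM in control a, b and c. Its log2 fold change was 0.68 (SE 0.08, adjusted p 0.0387 by limma), and the call was lost in each fit that left out 1 library, with adjusted p from 0.0733 to 0.175 by limma.

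The authors' deposited table gives its own test of single transcripts, the Wald test of the program sleuth, with effects on the natural log scale. Of the 48 STAT transcripts with a value in the authors' deposited table, 7 had a q-value under 0.05, against 5.68% of all transcripts there. All 7 were higher, against 4.08% higher over all transcripts in the authors' deposited table. They were 4 of STAT3, 2 of STAT2 and 1 of STAT6. For STAT3-201 the authors' deposited table gives an effect of 0.53 (SE 0.0567) and a q-value of 7.33e-18. For STAT3-213, STAT3-211 and STAT3-203 the effects in the authors' deposited table were 0.81, 0.62 and 0.51. For the coding form STAT2-201, an effect of 0.42 (q-value 6.57e-05) stands in the authors' deposited table, and for STAT6-201 one of 0.21 (q-value 0.0100). The other STAT2 form was STAT2-207, a processed transcript, at 0.30 in the authors' deposited table (q-value 0.00527). For STAT2-202, also coding, the authors' deposited table gives an effect of 0.18 with a q-value of 0.447. The mean of STAT3-201 in the authors' deposited table corresponds to 4111 estimated counts, for which counting alone gives an error of 1.56%. That of STAT5B-201 corresponds to 1737 estimated counts, and the authors' deposited table gives it an effect of -0.002 with a q-value of 0.994.

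STAT2-201 (ENST00000314128.4) had 6.18, 7.44 and 6.03 TPM in HA-TAZ 1, 2 and 3, and 5.44, 5.57 and 5.08 TPM in control a, b and c. The groups did not overlap, and the log2 fold change was 0.50 (SE 0.09, adjusted p 0.0748 by limma). With only transcripts above a mean of 5 TPM in the fit, STAT2-201 was called too (adjusted p 0.0420 by limma). STAT2-202 (ENST00000418572.2), another coding form, had 5.27 ± 0.350 against 5.57 ± 0.865 TPM (SD, n = 3 each). The groups overlapped on both scales, with a log2 fold change of 0.20 on scaled TPM (adjusted p 0.310 by limma). STAT6-201 (ENST00000300134.3), the main coding STAT6 form, had 13.3 ± 0.221 against 13.6 ± 0.575 TPM (SD, n = 3 each), which overlap. Its log2 fold change was 0.26 on scaled TPM (adjusted p 0.133 by limma) and -0.02 on TPM as deposited. STAT6-215 (ENST00000555222.1), a retained-intron transcript, had 3.16, 4.495 and 3.23 TPM in HA-TAZ and 7.49, 5.997 and 5.09 TPM in the controls. It lay lower in every HA-TAZ library, with a log2 fold change of -0.39 (SE 0.13, adjusted p 0.151 by limma). STAT5B-201 (ENST00000293328.3), the main coding STAT5B form, had 4.71 ± 0.133 against 5.93 ± 0.287 TPM and a log2 fold change of -0.03 on scaled TPM (adjusted p 0.873 by limma).

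**Figure D3:**
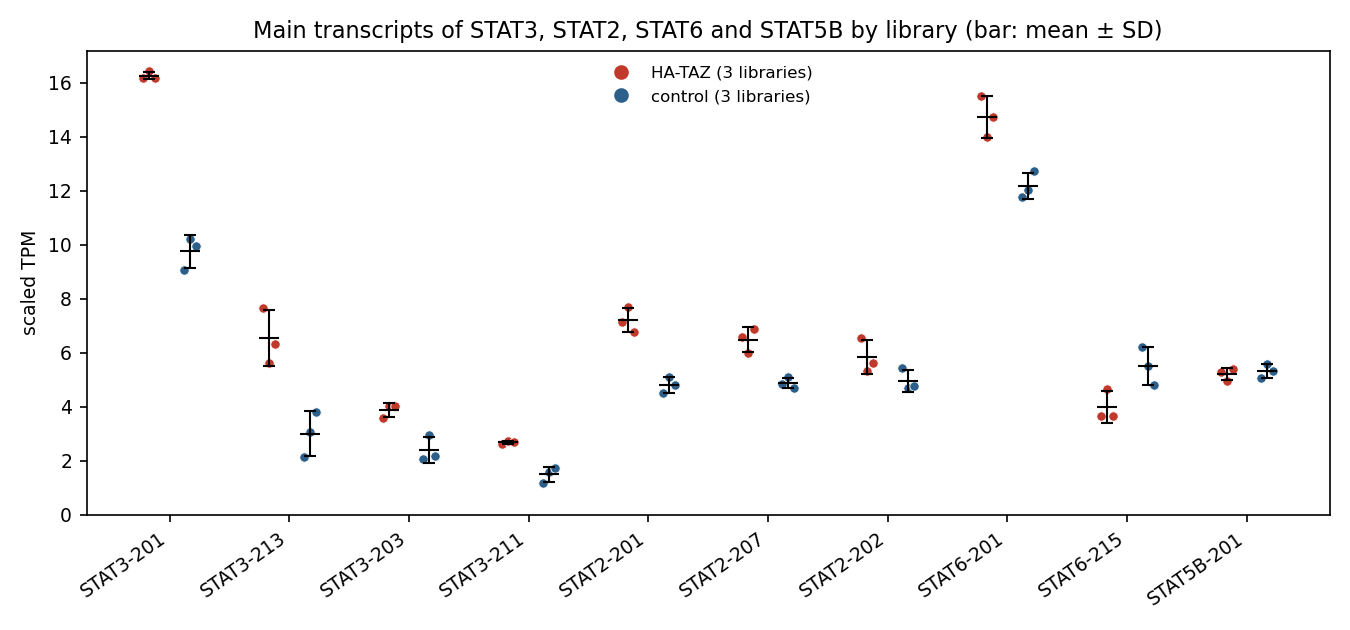
Scaled TPM of 10 main STAT transcripts in each library, named as in GENCODE release 29. Points are libraries and bars are the mean ± SD of a group. The 4 coding STAT3 forms on the left lie higher in every HA-TAZ library on this scale, and the retained-intron form STAT6-215 lies lower.

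STAT3 is made as several proteins by alternative splicing, and the 4 abundant coding transcripts encode 3 of them. STAT3-201 and STAT3-213 have 770 codons and encode full-length STAT3 alpha. STAT3-203 has 769 codons and STAT3-211 has 722. STAT3-211 encodes STAT3 beta, which ends in a different short tail and lacks the C-terminal transactivation domain. The stretches below are shown because they are where these forms part, taken from the GENCODE release 29 transcripts. Capitals mark 50 bases, coding bases 2145 to 2194 of the 770-codon transcript, that the 722-codon transcript lacks.
STAT3 770 codons: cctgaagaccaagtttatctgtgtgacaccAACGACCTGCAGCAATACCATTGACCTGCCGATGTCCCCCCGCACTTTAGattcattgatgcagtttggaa
STAT3 722 codons: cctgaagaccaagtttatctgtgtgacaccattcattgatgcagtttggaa
Since 50 is not a multiple of 3, the reading frame changes after the junction. In the next pair the capitals mark 3 bases, coding bases 2099 to 2101, that the 769-codon transcript lacks.
STAT3 770 codons: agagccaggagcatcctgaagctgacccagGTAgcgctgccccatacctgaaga
STAT3 769 codons: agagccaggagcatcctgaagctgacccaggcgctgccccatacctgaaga
These 3 bases are a whole codon's length, and the frame is kept.

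Summed over both transcripts, the 770-codon form had 20.6, 21.3 and 20.0 TPM in HA-TAZ 1, 2 and 3, and 13.6, 14.5 and 14.5 TPM in control a, b and c. The 722-codon beta form had 2.25, 2.64 and 2.39 TPM against 1.42, 1.70 and 1.82 TPM. In both forms every HA-TAZ library lay above every control. The 769-codon form had 3.52 ± 0.406 against 2.67 ± 0.474 TPM (SD, n = 3 each) and overlapped. Among the 3 forms, the beta form made up 9.12 ± 0.408% under HA-TAZ and 8.90 ± 0.819% in the controls (exact permutation p = 0.8). The 770-codon form made up 77.7 ± 1.54% against 76.7 ± 1.76% (exact permutation p = 0.6), and the 769-codon form 13.2 ± 1.14% against 14.4 ± 2.09% (exact permutation p = 0.4). The 3 shares overlapped between the groups, so no shift among the alpha and beta forms was detectable with 3 libraries a group.

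Shares of single transcripts within their gene were tested for the 10 transcripts that made up at least 10% of a STAT gene. In 4 of them the groups did not overlap, 3 higher and 1 lower, each with an exact two-sided permutation p of 0.1 and 0.25 after adjustment over the 10. Of 36118 such transcripts over all tested genes with several transcripts, 23.6% did not overlap, 12.7% higher and 10.9% lower. STAT3-213 held 17.5 ± 1.74% of STAT3 under HA-TAZ and 12.2 ± 2.83% in the controls (SD, n = 3 each). With shares taken only among transcripts with a mean of at least 1 TPM, STAT3-213 overlapped, at 21.3 ± 2.97% against 16.4 ± 3.28% (exact permutation p = 0.2). STAT2-201 held 24.7 ± 1.02% of STAT2 against 20.9 ± 0.858%, and STAT6-201 held 41.5 ± 3.43% of STAT6 against 36.6 ± 0.770%. Those 3 were coding transcripts with a higher share. The share of STAT6-215, the retained-intron transcript, was lower at 11.2 ± 1.75% against 16.6 ± 2.84%.

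The transcripts were then summed by class, a measure added after the data had been seen. Protein-coding transcripts made up 80.6%, 84.0% and 82.0% of STAT3 in HA-TAZ 1, 2 and 3, and 68.5%, 74.6% and 72.7% in control a, b and c. Retained-intron transcripts, which keep part of an intron and are often held in the nucleus, made up 15.8 ± 2.13% of STAT3 against 25.04 ± 3.02% (SD, n = 3 each). In STAT6 the coding share was 65.9 ± 1.63% against 60.4 ± 2.36%, and the retained-intron share was 32.9 ± 1.34% against 37.5 ± 1.58%. In both genes the groups did not overlap, with an exact two-sided permutation p of 0.1 each and 0.2 after adjustment over the 8 shares. The retained-intron share of STAT2 was 19.5 ± 1.56% against 22.4 ± 3.12%, and that of STAT5B was 30.4 ± 4.34% against 41.0 ± 7.57%. Both overlapped. Across 6785 genes with such transcripts, the median retained-intron share was 15.1% against 17.2%, and 24.5% of the genes were lower without overlap, against 2.96% higher, so lower retained-intron shares were common in these HA-TAZ libraries well beyond the STAT genes.

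The classes also differed in level. On scaled TPM the coding transcripts of STAT3 summed to 31.9, 29.6 and 30.4 in HA-TAZ 1, 2 and 3, and to 16.0, 18.2 and 18.7 in control a, b and c, a ratio of means of 1.74. The retained-intron transcripts of STAT3 had a ratio of 0.965 and overlapped between the groups. The coding sum of STAT2 had a ratio of 1.34 and that of STAT6 a ratio of 1.17, both without overlap, and that of STAT5B a ratio of 1.05, with overlap. The retained-intron sum of STAT5B had a ratio of 0.645 without overlap. STAT5B-205, 1 of its 5 transcripts, had 2.52, 0 and 1.13 TPM in control a, b and c, at a mean of 4.68 estimated counts. In HA-TAZ 1, 2 and 3 it had 0, 0.308 and 0.312 TPM. No share of class sums without overlap over other genes is given here. On scaled TPM, 38.5% of single genes and 32.4% of single transcripts did not overlap. Over all transcripts tested, the median log2 fold change was 0.10 for protein-coding and -0.10 for retained-intron transcripts. By GENCODE release 29, genes on the other strand overlap STAT6 (NAB2, at 1.73 against 1.74 TPM, and LRP1, at 0.648 against 1.02 TPM) and STAT5B (AC099811.4, at 0.691 against 1.25 TPM). The library kit kept strand, per the labels, but whether the quantification used it is not given in the sources used here. On the same strand, AC099811.1 overlaps STAT5B (1.26 against 2.24 TPM) and RNU7-40P overlaps STAT2 (4.74 against 7.51 TPM). Strand does not separate these from the STAT gene.

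**Figure D4:**
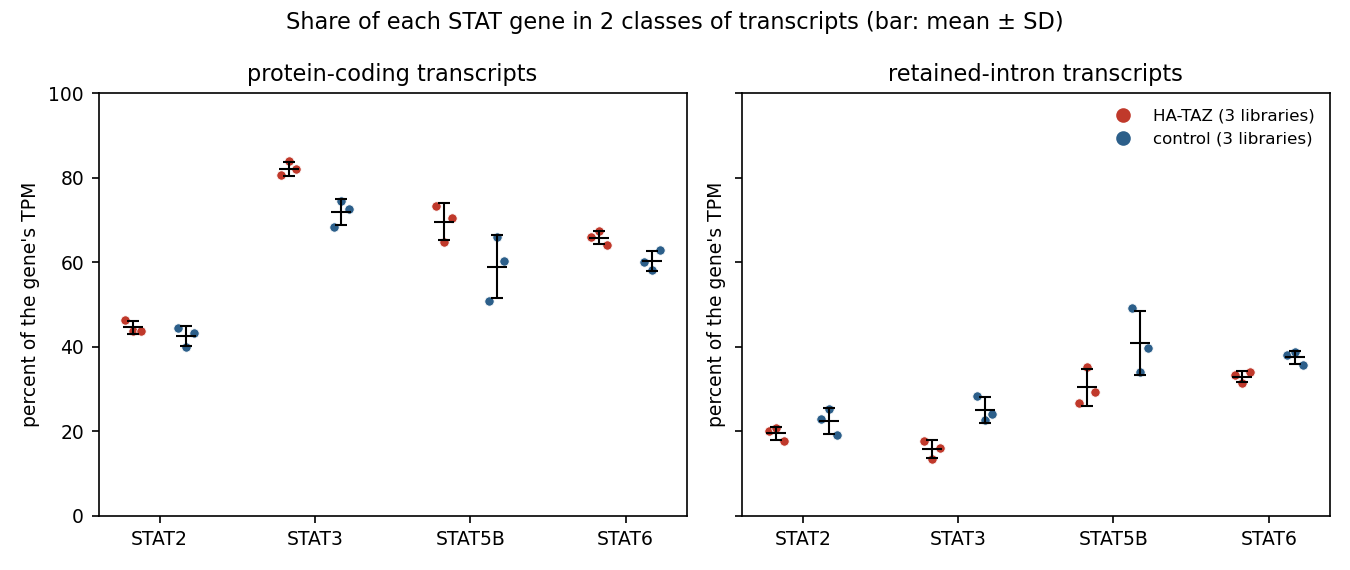
Share of each STAT gene's TPM in protein-coding and in retained-intron transcripts, by library, in percent. Points are libraries and bars are the mean ± SD of a group. STAT3 and STAT6 have a higher coding and a lower retained-intron share in every HA-TAZ library, while STAT2 and STAT5B overlap.

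The genes that feed STAT proteins were counted in lists chosen with earlier results of these data known. Beside each count stand 4.67% of all genes called higher and 2.63% called lower, 7.29% together. At an unadjusted p under 0.05 by limma, 6959 of the 22651 genes tested passed on scaled TPM. On TPM as deposited 9243 passed, and 261 were called higher and 3068 lower. In limma's test on scaled TPM, 2 of 5 tested cytokine ligands rose and none fell, with 4 higher and 0 lower at an unadjusted p under 0.05. The other 23 of 28 listed ligands lay below a mean of 1 TPM and were not tested. Among these IL6 had 0.178 against 0.106 TPM and overlapped. The interferon genes IFNB1, at 0.505 against 0.0482 TPM, and IFNL1, at 0.699 against 0.116 TPM, did not overlap, nor did EBI3, at 0.345 against 0.00699 TPM, and CSF2, at 0.268 against 0.00788 TPM. IL12B did not overlap either but was lower under HA-TAZ, at 0.205 against 0.317 TPM. These low genes are named after their values were seen, and no share of such low genes without overlap is given here. IL23A, a subunit of interleukin 23, rose from 7.71 ± 0.599 to 21.4 ± 2.64 TPM (SD, n = 3 each; log2 fold change 1.63, adjusted p 0.00215 by limma). IL15 rose from 2.91 ± 0.371 to 4.52 ± 0.733 TPM (log2 fold change 0.73, adjusted p 0.0469 by limma). IL7, IL12A and OSM had log2 fold changes of 0.59, 0.27 and 0.48 and were not called. OSM passed the filter only through the HA-TAZ libraries. The median of the 5 was 0.59, beside -0.03 for all genes tested. With any 1 of the 6 libraries left out, 1 ligand was called.

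Of 28 tested cytokine receptor genes, 4 rose and 3 fell, with a median log2 fold change of 0.03. Of these 3, CSF2RB passed the filter only through the controls. Of the 26 whose mean was at least 1 TPM in each group, 4 rose and 2 fell. Beside both counts stand 4.67% of all genes tested called higher and 2.63% called lower. IL2RG, the common gamma chain used by the receptors of interleukin 2, 4, 7, 9, 15 and 21, rose from 15.5 ± 2.71 to 21.997 ± 1.98 TPM (log2 fold change 0.78, adjusted p 0.0114 by limma). IL15RA, IFNGR2 and IL10RA rose with log2 fold changes of 0.52, 0.51 and 0.62. IL6R, the interleukin 6 receptor that acts upstream of STAT3, fell from 46.1 ± 2.20 to 27.5 ± 1.89 TPM (log2 fold change -0.43, adjusted p 0.0331 by limma). CSF2RB, the beta chain shared by the receptors of interleukin 3, interleukin 5 and GM-CSF, fell from 1.54 ± 0.0948 to 0.583 ± 0.0493 TPM (log2 fold change -0.53, adjusted p 0.0405 by limma). IL6ST, the signal-transducing partner of IL6R also called gp130, had 54.3 ± 6.75 against 77.2 ± 11.8 TPM and a log2 fold change of -0.20 (adjusted p 0.172 by limma). IFNAR1 and IFNLR1 had log2 fold changes of 0.18 and 0.08 and were not called. With any 1 of the 6 libraries left out, 0 to 1 receptors were called by limma.

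Of the 4 Janus kinases, 2 rose and none fell, beside 4.67% and 2.63% of all genes. JAK3, which pairs with the common gamma chain, rose from 12.3 ± 0.621 to 20.6 ± 1.02 TPM (SD, n = 3 each; log2 fold change 0.99, adjusted p 0.00891 by limma). TYK2, a kinase of the interferon receptors, had 79.7 ± 3.14 against 77.3 ± 13.1 TPM, and its log2 fold change was 0.35 (adjusted p 0.0491 by limma). JAK2 had 3.14 ± 0.433 against 5.04 ± 0.415 TPM and a log2 fold change of -0.31 (adjusted p 0.102 by limma). JAK1 had a log2 fold change of 0.04. TYK2 was near the threshold, and 1 Janus kinase was called with a pseudocount of 0.1, with no filter, with the factor over genes whose mean reached 10 TPM and without a trend. On TPM as deposited, 1 Janus kinase rose and 1 fell. By limma, 0 were called without HA-TAZ 1, 2 without control a and 1 without each of the other libraries in turn.

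Among the inhibitors, a list of SOCS and PIAS proteins, phosphatases and others, 1 of 15 tested fell and none rose, with 6 higher and 2 lower at an unadjusted p under 0.05. The share called, 1 of 15, is close to the 7.29% called over all genes. Of all 22651 genes tested, 6959 had an unadjusted p under 0.05 by limma. Of the 15 inhibitors, 1 passed the filter through 1 group only and was not called. Without scaling 0 rose and 3 fell, with 1 higher and 5 lower at an unadjusted p under 0.05 by limma. PIAS1, which blocks STAT binding to DNA, fell from 47.2 ± 6.78 to 30.3 ± 2.41 TPM (log2 fold change -0.32, adjusted p 0.0406 by limma). PTPN11, PTPN2 and PIAS2, the most abundant not called, had log2 fold changes of 0.06, -0.18 and -0.27. SOCS3, the feedback inhibitor that STAT3 induces, is named here after its values were seen, since it fell below the filter. It had 1.07, 1.21 and 1.24 TPM in HA-TAZ 1, 2 and 3, and 0.0304, 0.0788 and 0.0326 TPM in control a, b and c. The groups did not overlap, but the level was low. With any 1 of the 6 libraries left out, limma called 0 of the tested inhibitors.

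Of 12 cofactors and nuclear import factors, 1 rose and none fell, and this share too is close to 7.29%. At an unadjusted p under 0.05 by limma 4 were higher and 0 lower, beside 6959 of all 22651 genes tested. Without scaling 1 rose and 1 fell. The gene called on scaled TPM was IRF9, the DNA-binding partner of STAT2, which rose from 11.6 ± 1.94 to 18.3 ± 1.34 TPM (SD, n = 3 each; log2 fold change 0.91, adjusted p 0.0138 by limma). KPNB1, KPNA2 and CREBBP, the most abundant not called, had log2 fold changes of 0.19, 0.11 and -0.05. The IRF9 call was lost without HA-TAZ 1, HA-TAZ 2 or HA-TAZ 3, each left out alone, which leaves 0 of the 12 called by limma.

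Genes known as targets of the STATs were counted in the same way, and a target's change does not measure its STAT's activity. Of 20 tested targets of STAT2 with IRF9, 10 rose and none fell, beside 4.67% and 2.63% of all genes, with a median log2 fold change of 0.57. Of the 10, IFIT2 and IFIT3 passed the filter only through the HA-TAZ libraries. Of the 18 with a mean of at least 1 TPM in each group, 8 rose and none fell, with a median of 0.53. With the filter at 5 TPM, 5 targets were called. IFIT1, of a family of proteins that bind viral RNA or block its translation, rose from 1.33 ± 0.181 to 4.62 ± 0.542 TPM (log2 fold change 1.48, adjusted p 0.00480 by limma). IFIT5 of the same family rose with a log2 fold change of 1.04. IFIT2 had 7.02 ± 0.829 against 0.499 ± 0.132 TPM (log2 fold change 2.60, adjusted p 0.00111 by limma), and IFIT3 had 4.71 ± 0.360 against 0.882 ± 0.0872 TPM (log2 fold change 1.79). IFI44 and IFIH1, the latter a sensor of double-stranded RNA, rose with log2 fold changes of 1.15 and 0.81. BST2, IFI35 and XAF1, the most abundant not called, had log2 fold changes of 0.32, 0.49 and -0.19. With any 1 of the 6 libraries left out, 4 to 7 of the 20 were called.

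Of 13 tested STAT3 targets, 6 rose and none fell, beside 4.67% and 2.63% of all genes, with a median log2 fold change of 0.38. JUNB rose from 16.8 ± 1.15 to 37.1 ± 1.07 TPM (log2 fold change 1.39, adjusted p 0.0069 by limma). MUC1 rose from 6.90 ± 1.77 to 29.6 ± 2.21 TPM (log2 fold change 2.25, adjusted p 0.0114 by limma), and BCL3 from 11.9 ± 0.908 to 21.8 ± 0.841 TPM (log2 fold change 1.11, adjusted p 0.00271 by limma). PIM1, a survival kinase, and FOS rose with log2 fold changes of 0.87 and 0.82. MCL1, the anti-apoptotic protein on which myeloma cells depend, rose from 80.8 ± 5.29 to 102 ± 7.11 TPM (log2 fold change 0.63, adjusted p 0.0106 by limma). MYC, HIF1A and BIRC5, the most abundant not called, had log2 fold changes of 0.18, 0.38 and 0.25. With any 1 of the 6 libraries left out, 4 to 5 of the 13 were called.

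Of 10 tested STAT5 targets, 4 rose and none fell, beside the same shares of all genes, with a median log2 fold change of 0.49, although neither STAT5 gene was called. PIM1 and MCL1 stand in this list too, and the others were PIM2 and DUSP5, with log2 fold changes of 0.49 and 0.64. ID1, BCL2L1 and CCND3 had log2 fold changes of 0.07, 0.24 and 0.04 and were not called. Of the 10 STAT5 targets, 1 passed the filter through 1 group only and was not called. The number of STAT5 targets called was 1 without HA-TAZ 2, and 2 without HA-TAZ 1 or control b. Of 4 tested STAT6 targets none was called by limma. At an unadjusted p under 0.05 by limma 2 were higher and 0 lower, beside 6959 of all 22651 genes tested. Of the 4, 1 passed the filter through 1 group only. The median log2 fold change was 0.43 over all 4 and 0.19 over the other 3. BATF had a log2 fold change of 0.70 (adjusted p 0.068 by limma), IL4R of 0.02 and GATA3 of 0.19. On TPM as deposited the counts were 7 higher and 0 lower for STAT2 with IRF9 targets, 5 higher and 2 lower for STAT3 targets and 3 higher and 0 lower for STAT5 targets. Over all 22651 genes tested, 261 were called higher and 3068 lower on that scale. The cytokine receptors had 0 higher and 5 lower on it. At an unadjusted p under 0.05 by limma 3 receptors were higher and 10 lower, beside 9243 of all genes tested. The medians of the receptors, Janus kinases, inhibitors and cofactors were -0.22, -0.09, -0.15 and -0.20, beside the lower -0.27 for all genes tested.

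**Figure D5:**
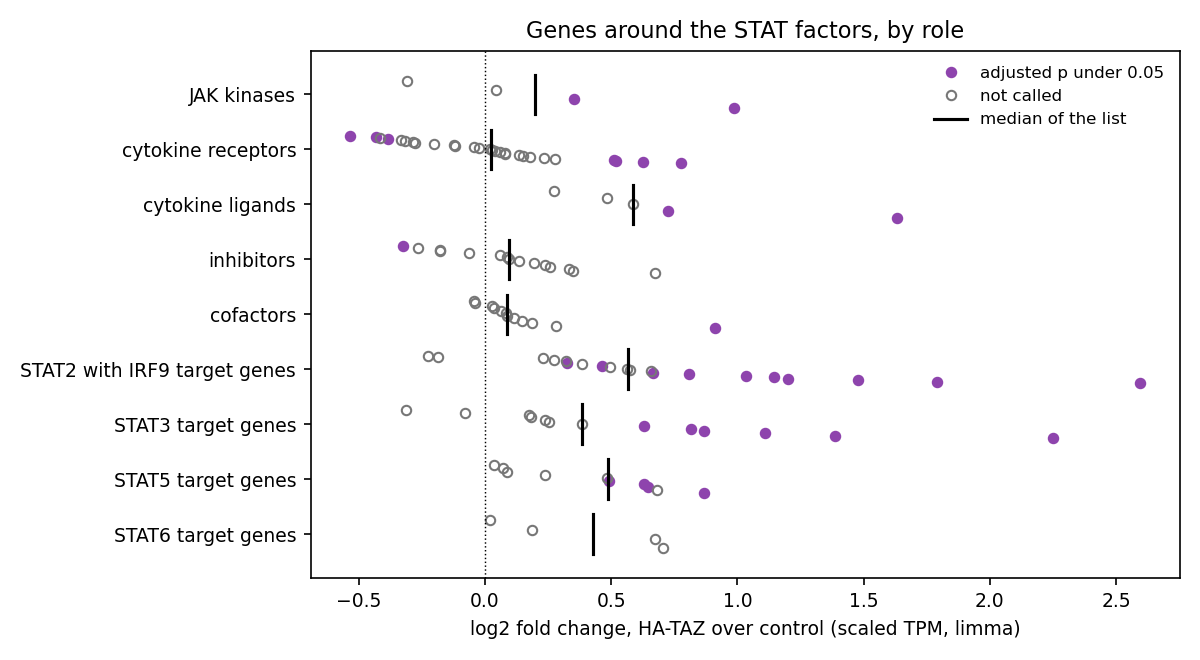
Log2 fold change on scaled TPM, HA-TAZ over control, of each tested gene in the 9 lists around the STAT proteins. Points are genes, with those called by limma marked, and the vertical bars are list medians. The STAT2 with IRF9 targets have the highest called gene, IFIT2 at 2.60, which passed the filter only through the HA-TAZ libraries. That list has no called gene below 0, nor has any other list except the receptors and the inhibitors. The receptors have calls on both sides.

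The promoters of the 2 called members are shown since STAT2 and STAT3 were both higher on scaled TPM. Each is the window from 250 bases before to 50 after the gene start, from RefSeq on GRCh38.p14, read along the gene's strand. All 6 members matched the RefSeq table, with 9 windows. Capitals mark a match to CATTCC, the core letters of the motif of TEAD factors, through which TAZ binds DNA.
STAT2, chr12:56360058-56360357, minus strand: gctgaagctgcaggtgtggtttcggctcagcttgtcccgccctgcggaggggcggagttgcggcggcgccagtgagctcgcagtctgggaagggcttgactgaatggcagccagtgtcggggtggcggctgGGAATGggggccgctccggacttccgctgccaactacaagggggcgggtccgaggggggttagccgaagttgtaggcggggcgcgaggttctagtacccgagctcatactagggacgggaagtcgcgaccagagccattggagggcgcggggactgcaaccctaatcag
STAT3, chr17:42388393-42388692, minus strand: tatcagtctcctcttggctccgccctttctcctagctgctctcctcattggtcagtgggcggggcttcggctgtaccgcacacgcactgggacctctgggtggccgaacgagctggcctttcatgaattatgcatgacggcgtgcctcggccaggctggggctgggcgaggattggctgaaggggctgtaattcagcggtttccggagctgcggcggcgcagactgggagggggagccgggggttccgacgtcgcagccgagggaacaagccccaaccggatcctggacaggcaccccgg
The windows of the 6 members were searched on both strands for CATTCC, for TTCNNNGAA, the palindromic element that STAT pairs bind, and for the core of the interferon-stimulated response element (ISRE), which STAT2 with IRF9 binds. These 3 patterns were searched separately, and matches could overlap. The only match in the 9 windows was GGAATG, the reverse complement of CATTCC, at -119 from the STAT2 start. Of all 35116 RefSeq windows, 14.0% hold CATTCC, 7.66% hold TTCNNNGAA and 3.57% hold the ISRE core. A match is a description of letters and not a binding site, and no match speaks only of these windows.

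Across the 6 libraries STAT2 and STAT3 went together on log2 scaled TPM, with a Pearson r of 0.93, while STAT5B and STAT6 went apart, with r of -0.91. These are descriptions over 6 libraries that share 2 groups and their scaling factors. Among genes with a mean of at least 10 TPM, the patterns most like that of STAT3 were those of KPNA6, ASNA1 and TOMM34, with r from 0.998 to 0.999. So many genes followed the same pattern that 18.2% had an r of at least 0.9 with STAT3 and 13.2% with STAT2, whose nearest were HNRNPAB, SH3GLB1 and PSMC5. STAT5B was nearest to SPRED1 (r = 0.998), followed by Y_RNA (ENSG00000222511) and AC140061.4, and only 0.829% of genes reached 0.9. STAT6 was nearest to ATAD3B (r = 0.994), KTN1 and ZFYVE27, and 1.49% of genes reached 0.9.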

How the data were processed

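Total RNA of 6 KMS27 libraries was depleted of ribosomal RNA and sequenced in pairs from a stranded kit, per the labels' protocols. The submitters' processing notes name GRCh37, kallisto 0.46.0 and sleuth 0.30.0, with no role stated. The annotation release and the use of strand are not given in the sources used here. The deposited expression table holds TPM per transcript, which sums to 1e+06 in each library. The authors' deposited table of comparisons holds effects and means on the natural log scale, and p-values and q-values from a Wald test, per the file headers. Its variance columns are scores of the deposited model and were not used.

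TPM was summed per gene and divided by a median-of-ratios factor over the 21512 genes whose mean reached 1 TPM and that had no zero. limma 3.58.1 (R 4.3.3) with an intensity trend was fitted to log2(scaled TPM + 1) over all 6 libraries, separately for the 22651 genes and 57448 transcripts whose mean reached 1 TPM. Adjusted p (Benjamini-Hochberg) under 0.05 counted as called. The pseudocount understates changes of low genes. Single shares and ratios were given exact two-sided permutation tests. The fit was tested on simulated data. Transcript types, names and lengths came from GENCODE release 29, by transcript ID without version, and promoters from RefSeq. Alternatives were a pseudocount of 0.1, other filters, other scalings, no trend and each library left out. The members and lists were chosen with earlier results of these data known. Named were all members with their abundant transcripts, up to 6 called genes of each list with the smallest p, up to 3 of the most abundant not called, and the 3 genes most like each member.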

Additional observations from a re-analysis of the deposited data

How the results depend on the processing

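Beside the values on scaled TPM, STAT2 had a log2 fold change of 0.33 without a filter (adjusted p 0.0591 by limma), 0.33 without a trend (adjusted p 0.0604 by limma) and 0.0438 on TPM as deposited, none of them called, and STAT6 reversed to -0.20 on TPM as deposited. STAT3 was called under all 6 alternatives of pseudocount, filter, scaling and trend. The number of STAT genes called was 2, and 1 with no filter, with TPM as deposited and without a trend. All genes called numbered 1652, and 691 with no filter, 3329 with TPM as deposited and 758 without a trend. Of these calls 64.0% were higher on scaled TPM, 7.84% on TPM as deposited and 43.2% with the factor taken over genes whose mean reached 10 TPM. List genes called numbered 31, and 20 with no filter. STAT transcripts called numbered 1, and 0 with no filter, with TPM as deposited and without a trend, 2 with the filter at 5 TPM and 7 in the authors' deposited table. All transcripts called numbered 307, and 108 with no filter, 1655 with the filter at 5 TPM, 120 with TPM as deposited and 156 without a trend.

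With each library left out in turn, the log2 fold change lay between 0.31 and 0.38 for STAT2 and between 0.55 and 0.63 for STAT3. The calls ranged from 0 to 1 for STAT genes, 118 to 470 for all genes, 9 to 18 for list genes, 0 to 0 for STAT transcripts and 12 to 114 for all transcripts. Fewer libraries leave fewer residual degrees of freedom in these fits. Transcript directions that reversed, none of them called, were -0.0599 for ENST00000418572.2, -0.161 for ENST00000557252.1, -0.157 for ENST00000555488.1, -0.00864 for ENST00000557199.1 and -0.0249 for ENST00000300134.3 with TPM as deposited, and -0.0158 for ENST00000557252.1 and -0.0311 for ENST00000555488.1 with the factor over genes whose mean reached 10 TPM. With a library left out, the ranges that crossed 0 were -0.0636 to 0.182 for ENST00000557252.1, -0.273 to 0.0104 for ENST00000555519.1, -0.0355 to 0.0437 for ENST00000555488.1, -0.00816 to 0.277 for ENST00000557199.1, -0.216 to 0.0578 for ENST00000462269.1, -0.0561 to 0.00664 for ENST00000293328.3 and -0.0769 to 0.0904 for ENST00000481517.1. Where no construction is named, the cause was not tested. No paired analysis was possible because the control columns carry numbers under a name that is in no label, so no number links a control column to a wild type sample. The list counts over genes with a mean of at least 1 TPM in each group were chosen after seeing the data.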

Other observations

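The genes that lie next to the STAT genes in RefSeq order were read after the data had been seen. IL23A, the neighbour of STAT2 on chromosome 12, was the only neighbour called, with a log2 fold change of 1.63 (SE 0.09, adjusted p 0.00215 by limma) beside 0.33 for STAT2. APOF, on the other side of STAT2, lay at 0.480 against 0.481 TPM. GHDC, beside STAT5B on chromosome 17, had 11.5 ± 0.341 against 12.3 ± 0.711 TPM (SD, n = 3 each) and a log2 fold change of 0.19 (adjusted p 0.139 by limma). CAVIN1, beside STAT3, lay at 0.257 against 0.2999 TPM, and STAT5A, which lies between STAT5B and STAT3, was below the filter.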
